A study of Homo sapiens with 18 samples.

Results

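Nuclear copies of mitochondrial genes are stretches of mitochondrial DNA that were inserted into the chromosomes during evolution and are annotated as pseudogenes. The members described here were the rows of the gene count table whose description starts with "mitochondrially encoded", whose symbol does not begin with MT- and whose raw counts, summed over all 18 libraries, came to at least 20. The rule found 89 of the 54425 rows, out of 384 rows for such copies of any total. The members were thus chosen by their total counts, and those totals are therefore a description and not a finding.

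The libraries were ATAC-seq libraries, in which a transposase cuts open DNA in isolated nuclei and adds sequencing adapters, from HEK293T cells, a human embryonic kidney line. All cells carried t(4;11) fusion constructs of MLL (KMT2A) and AF4 (AFF1), stably transfected or, for AF4-MLL in the combined setting, transfected transiently into a stable line, and all were treated with doxycycline at 1 µg/ml for 48 h to switch on the inducible construct. The settings were AF4-MLL (inducible), MLL-AF4 (inducible) and both at once (constitutive MLL-AF4 with AF4-MLL inducible, named co-expression in the plots). Each setting was sampled on day 3 and on day 28, after growth without doxycycline, with 3 libraries per group. There is no mock sample in this set, and the comparisons below are between days and between constructs. The replicates carry the labels BR1 to BR3, and no label says that they came from separate cultures, so p-values measure the spread between these libraries. Since each library pools many nuclei, more counts in every cell and more counts in some cells cannot be told apart.

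The mitochondrial genome is a small circle with 37 genes, present in many copies in each cell and not packed into nucleosomes, so that the transposase of an ATAC-seq experiment cuts it readily. Its 13 protein-coding genes encode subunits of respiratory complexes I, III, IV and V, and the other genes encode ribosomal and transfer RNAs. A nuclear copy is not translated in the organelle, and where its sequence is still identical to the mitochondrial gene (its parent, named in the description of the row), a short read cannot show from which of the 2 places it came. How reads that match several places were counted is not given in the sources used here, and the counts on each member are uncertain for that reason. No sequence of a member was available in the reference tables used here, and none is shown.

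The 89 members were copies of protein-coding genes only. By parent, 47 were copies of complex I genes (ND1 to ND6), 9 of the complex III gene CYB, 29 of complex IV genes (CO1, CO2 and CO3) and 4 of complex V genes (ATP6 and ATP8), and no copy of a ribosomal or transfer RNA gene was among them. In the RefSeq table of assembly GRCh38.p14, 88 of the 89 were found, all as pseudogenes, on 20 chromosomes, with lengths from 135 to 2588 bp (median 1090 bp). Of these, 56 members lay in 18 clusters with gaps of at most 10000 bp between neighbours, and 32 stood alone. Of the 88, 46 overlapped another annotated gene, with which reads can be shared.

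Nearly all counts fell on a short stretch at the tip of chromosome 1. The members together held 1479279 counts, 12.9% of the counts outside the mitochondrial genome. The block at 1p36 (chr1:629062-634922, 5861 bp, 7 members) held 1382578 of them, or 93.5%. In the order of the chromosome it consists of MTND1P23 and MTND2P28, copies of 2 complex I subunit genes, MTCO1P12 and MTCO2P12, copies of the CO1 and CO2 genes of cytochrome c oxidase, MTATP8P1 and MTATP6P1, copies of the 2 mitochondrial subunit genes of ATP synthase, and MTCO3P12, a copy of the CO3 gene of cytochrome c oxidase. Within it MTCO1P12 (chr1:631074-632616) had 456384 counts, MTND2P28 341476, MTATP6P1 220825, MTND1P23 157490, MTCO3P12 97586, MTCO2P12 94956 and MTATP8P1 13861. Per kb of gene length, MTND1P23 led with 415541 counts, and MTATP8P1, which overlaps MTATP6P1, was the lowest of the block with 66961, against a median of 31.7 counts per kb over the 88 members with a length.

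**Figure D1:**
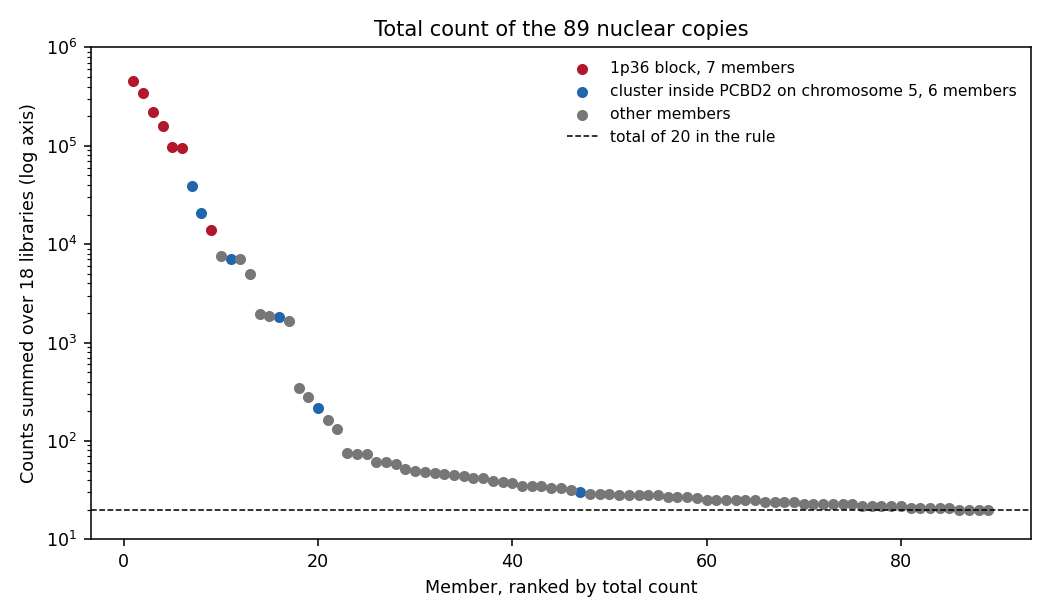
Total count over 18 libraries (log axis) of each of the 89 members, ranked from the highest. The 7 members of the 1p36 block hold 93.5% of all member counts, and 52 members lie between 20 and 40 counts, just above the dashed line at the total of 20 that the rule set.

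The next largest group was a cluster of 6 members inside PCBD2 on chromosome 5 (chr5:134923303-134928527) with 68635 counts. It held MTND6P4 (38618 counts), MTND4P12 (20872), MTND5P11 (7082), MTCYBP18 (1816), MTND4LP30 (217) and MTND3P25 (30). Copies outside these clusters followed, MTCO1P40 on chromosome 17 with 7530 counts, MTCO2P2 inside SMAD2 with 6993, and MTATP8P2 on chromosome 2 with 4991. The 17 members with at least 1000 counts held 99.8% of all member counts. At the other end, 52 members had between 20 and 40 counts. Just inside the rule lay MTCO1P18 and MTCO1P20 with 20 counts each, and just outside it MTCO3P8 and MTCYBP13 with 19. The 295 copies under the total of 20 held 2743 counts together.

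On day 28 the members took a larger share of the counts than on day 3, in every setting. Under AF4-MLL they made up 6.11%, 4.41% and 6.70% of the counts outside the mitochondrial genome on day 3 and 16.3%, 19.4% and 16.1% on day 28. Under MLL-AF4 the shares were 7.21%, 7.64% and 6.54% on day 3 and 17.3%, 17.4% and 16.2% on day 28. Both constructs together gave 7.20%, 6.43% and 4.45% on day 3 and 19.8%, 15.9% and 16.5% later. All 9 libraries of day 28 lay above all 9 of day 3. The means rose from 5.74% ± 1.19 to 17.2% ± 1.84 under AF4-MLL (SD, n = 3, 3.00-fold), from 7.13% ± 0.553 to 17.0% ± 0.645 under MLL-AF4 (2.38-fold) and from 6.03% ± 1.42 to 17.4% ± 2.07 under both constructs (2.89-fold). These are sums over chosen rows and were not tested.

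The 37 genes of the mitochondrial genome moved with the members. Their share of all counts was between 32.7% and 45.6% on day 3 and between 63.6% and 68.5% on day 28. Set against these genes, the members hardly moved. They had between 90.4 and 92.4 counts per 1000 counts on the 37 genes in all 18 libraries, with a mean of 91.1 ± 0.581 (SD, n = 9 libraries) on day 3 and 91.3 ± 0.412 on day 28. The coefficient of variation over the 18 libraries was 0.546% for this ratio and 49.0% for the share of the other counts. Within the members the split was steady too, as the 1p36 block held between 93.1% and 93.7% of member counts in each library. Library depth also moved with the day, from 442159 to 1323431 counts on day 3 and from 1058754 to 3539937 on day 28 (median of all libraries 1254820), and its part in the result was not tested.

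**Figure D2:**
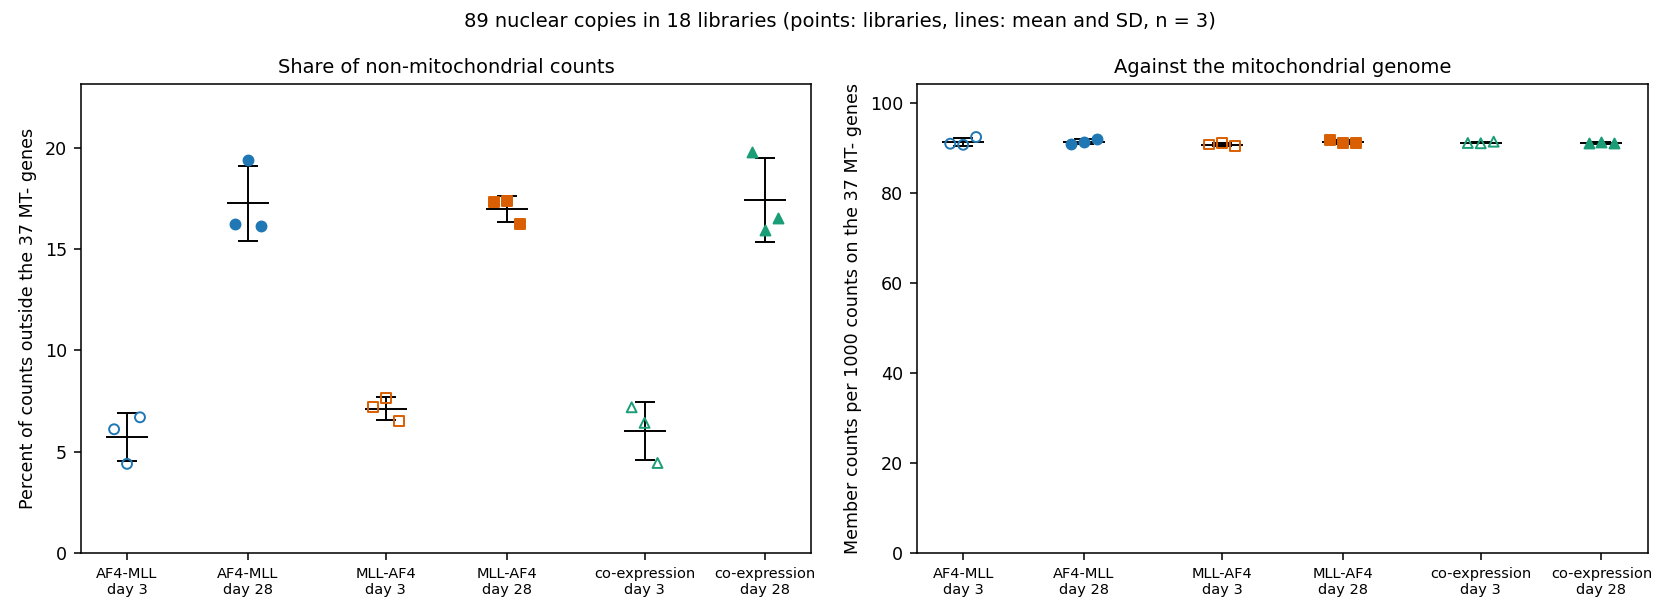
Left, percent of the counts outside the 37 mitochondrial genes that fell on the 89 members in each library, and right, member counts per 1000 counts on those 37 genes, with mean and SD of 3 libraries. The share lies between 4.41% and 7.64% on day 3 and between 15.9% and 19.8% on day 28, while the ratio stays between 90.4 and 92.4 in every library.

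Member by member, day 28 was compared with day 3 in a fit of all rows, in which a row counts as called when the Benjamini-Hochberg adjusted p of edgeR's quasi-likelihood test is under 0.05. Values per library are CPM, counts per 1e6 counts, on library sizes scaled by TMM, which centres the median of all rows near 0. Only 21 of the 89 members passed the filter on low counts, the highest total left out being 131 and the lowest kept 163. MTCO1P53 and MTND4LP30 passed through their day 28 libraries (0 and 2 libraries over the cut on day 3, 5 and 5 on day 28). Passing in this way favours a higher value on day 28, so a count over the 21 is no measure of all members. Under AF4-MLL 20 of the 21 were called higher on day 28, against 0.453% of all 17660 rows tested. Under MLL-AF4 the count was 18 against 1.29% of rows, and under both constructs 19 against 0.436%. Without the 2 members that passed through day 28 the counts were 18, 17 and 17 of 19. No member was called lower by edgeR, or by DESeq2 among the 17, 17 and 18 members to which it gave an adjusted p. Of all rows edgeR called 0.153%, 1.57% and 0.17% lower, and 1 member, MTCYBP43 under MLL-AF4, was lower at an unadjusted p under 0.05, as were 8.41% of rows there. The median log2 difference of the 21 was 1.81, 1.43 and 1.75 under AF4-MLL, MLL-AF4 and both, in that order, which also holds for the values in threes below. With library size as the only scaling the median of all rows moved to −1.03, −0.85 and −1.04, and 16, 14 and 14 members were called higher, beside 0.306%, 0.311% and 0.306% of rows. On that scale 1 member, MTCYBP43, was called lower in each setting, beside 86.5%, 63.2% and 86.8% of rows. The calls lost there were those of MTND4P12 and MTND4P35 in all settings, MTND6P22 under MLL-AF4 and under both constructs, MTCO1P40 under MLL-AF4, MTCYBP35 and MTND4LP30 under AF4-MLL, and MTND4LP30 and MTCO1P53 under both constructs.

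Without the filter, over all 89 members, the log2 difference was above 0 for 75 under AF4-MLL, 67 under MLL-AF4 and 76 under both constructs, with medians of 1.28, 1.01 and 1.29 beside 0.04, 0.14 and 0.00 for all rows. The calls were then 22, 20 and 17, all higher, beside 0.13%, 0.305% and 0.123% of all rows called higher in that fit. All 3 libraries of day 28 lay above all 3 of day 3 for 35, 32 and 32 of the 89 members, where 6.94%, 9.92% and 6.91% of the rows tested did so. They lay below for 1, 3 and 3 members, against 7.11%, 10.5% and 7.32% of rows. These shares cover only rows that passed the filter. Of the 21 members that passed, the 2 that passed through day 28 among them, 20, 19 and 19 lay above and 0 below. Other pseudogenes stayed near 0 at the median. Of 344 tested rows described as pseudogenes of other genes, 1 was called under AF4-MLL, 6 under MLL-AF4 and 1 under both constructs, with median log2 differences of −0.02, −0.02 and −0.01. Of the 36 tested mitochondrial genes, 36, 35 and 36 were called higher with medians of 1.83, 1.45 and 1.77. MTRNR2L8 and MTRNR2L12, nuclear genes derived from the mitochondrial 16S rRNA that the rule leaves out, were called higher in each setting, with log2 differences from 1.95 to 1.98, from 1.58 to 1.61 and from 1.91 to 1.93.

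In the 1p36 block the members of high count moved side by side. MTCO1P12, the copy of the CO1 gene, had 8091, 5819 and 9133 CPM under AF4-MLL on day 3 and 24119, 29733 and 23729 CPM on day 28. Under MLL-AF4 it had 9806, 10540 and 8897 CPM, then 25440, 25471 and 23532 CPM. Under both constructs it had 9716, 8671 and 5927 CPM, then 30883, 23604 and 24419 CPM. No library of day 3 reached the lowest of day 28. Its log2 difference was 1.75 (SE 0.22, edgeR adjusted p 3.75e-11) under AF4-MLL, 1.35 (SE 0.22, adjusted p 1.25e-06) under MLL-AF4 and 1.70 (SE 0.22, adjusted p 1.56e-10) under both constructs. MTND2P28 (chr1:629640-630686), the copy of the ND2 gene of complex I, lay between 3918 and 7112 CPM on day 3 and between 17656 and 23299 CPM on day 28. Across the 6 block members other than MTATP8P1, log2 differences ran from 1.71 to 1.93 under AF4-MLL, from 1.32 to 1.57 under MLL-AF4 and from 1.70 to 1.82 under both constructs, and all 6 were called in each.

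MTATP8P1 (chr1:633535-633741), the copy of the small ATP synthase subunit gene ATP8, had the steepest difference of the block. It had 152, 107 and 185 CPM under AF4-MLL on day 3, 186, 226 and 191 CPM under MLL-AF4 and 197, 169 and 107 CPM under both constructs. On day 28 it had 790, 991 and 756 CPM, 936, 892 and 846 CPM, and 969, 737 and 753 CPM. Every library of day 28 held more than 3 times the CPM of any library of day 3. The log2 differences were 2.48 (SE 0.14, edgeR adjusted p 3.22e-43), 2.15 (SE 0.14, adjusted p 8.2e-35) and 2.38 (SE 0.14, adjusted p 6.01e-42). The other tested copy of ATP8, MTATP8P2 (chr2:87824942-87825143), had 37.6 to 79.8 CPM on day 3 and 267 to 363 CPM on day 28, with log2 differences of 2.57, 2.17 and 2.33.

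In the chromosome 5 cluster inside PCBD2, neighbours within a few kb of each other moved by different amounts. MTND6P4 (chr5:134924123-134924644), a copy of the complex I gene ND6, had 410 to 770 CPM on day 3 and 2003 to 2608 CPM on day 28. Its log2 differences were 1.93, 1.68 and 1.95 under AF4-MLL, MLL-AF4 and both, in that order. MTND5P11 (chr5:134924648-134926459) rose by 1.95, 1.66 and 2.0, and MTCYBP18 (chr5:134923303-134924049), a copy of the cytochrome b gene, by 2.31, 2.10 and 2.46. MTND4P12 (chr5:134926661-134928036), a copy of the complex I gene ND4, had 498, 354 and 540 CPM under AF4-MLL on day 3 and 1071, 1251 and 936 CPM on day 28. Under MLL-AF4 it had 594, 603 and 521 CPM, then 1221, 1148 and 1101 CPM, and under both constructs 642, 510 and 347 CPM, then 1149, 922 and 939 CPM. The days did not overlap, but its log2 differences were the lowest of the cluster members called in all 3 settings, at 1.21 (SE 0.14), 1.01 (SE 0.14) and 1.01 (SE 0.14), the last of which was −0.0049 with library size as the only scaling. The host gene PCBD2 had log2 differences of 0.03, −0.16 and 0.19 and was called in no setting.

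By complex, and without the 2 members that passed the filter through day 28, the tested members were 8 of complex I, 5 of complex IV and 3 of complex V, all of which were called higher in each setting, and 3 of complex III. The complex IV members among them outside the block were MTCO1P40, with log2 differences of 1.65, 0.95 and 1.68, and MTCO2P2, with 1.88, 1.57 and 1.74. MTCO1P53, which passed the filter through day 28, had 2.26, 2.51 and 2.40, given as a description only. MTCO1P53 had at most 6 counts in any library of day 3, and its call under both constructs held under 5 of 12 alternatives and was lost without day 3 replicate 2 or 3 or day 28 replicate 1, with values from 1.76 to 2.23 and adjusted p from 0.217 to 0.581. Of the other complex I members, MTND6P3 rose by 1.89, 1.81 and 1.85. MTND6P22 rose by 1.5, 1.10 (0.25 with library size as the only scaling) and 1.26 (0.22), and MTND4P35 by 1.24 (0.22 on that scaling), 0.80 (−0.052) and 1.24 (0.22). MTND4LP30, which overlaps MTND4P12, also passed the filter through day 28, so its values are a description only. It was called under AF4-MLL (1.71) and both constructs (1.63) and had 0.85 under MLL-AF4 (SE 0.43, edgeR adjusted p 0.314). Its call under AF4-MLL was lost without day 3 replicate 1 (1.63, adjusted p 0.0774), and its call under both constructs held under 7 of 13 alternatives. The latter was lost without the filter and without day 3 replicate 1, 2 or 3 or day 28 replicate 1, with log2 differences from 0.85 to 1.76 and adjusted p from 0.0526 to 0.734.

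The 3 tested members of complex III, all copies of CYB, differed among themselves, which was not tested. MTCYBP18 (1816 counts) was called in all 3 settings, MTCYBP35 (280 counts) under AF4-MLL only (1.57, with 0.43 and 0.52 in the other settings, where the difference between settings was not called), and MTCYBP43 (349 counts) in none. The call of MTCYBP35 was lost without day 3 replicate 1 (1.51, adjusted p 0.0808) or day 28 replicate 2 (1.14, adjusted p 0.308) of AF4-MLL. MTCYBP43 (chr4:30884443-30885182, inside PCDH7) was chosen for description after its values were seen. It had 15.8, 8.36 and 19.3 CPM under AF4-MLL on day 3 and 10.7, 10.7 and 15.5 CPM on day 28. Under MLL-AF4 it had 28.0, 7.34 and 20.1 CPM, then 14.3, 9.68 and 10.4 CPM, and under both constructs 11.5, 14.4 and 16.5 CPM, then 12.7, 13.2 and 20.5 CPM. The days overlapped in every setting. Its log2 differences were −0.36 (SE 0.28, edgeR adjusted p 0.734), −0.74 (SE 0.31, adjusted p 0.193) and 0.02 (SE 0.27, adjusted p 0.992), while the host gene PCDH7 had 0.14, −0.04 and −0.25.

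**Figure D3:**
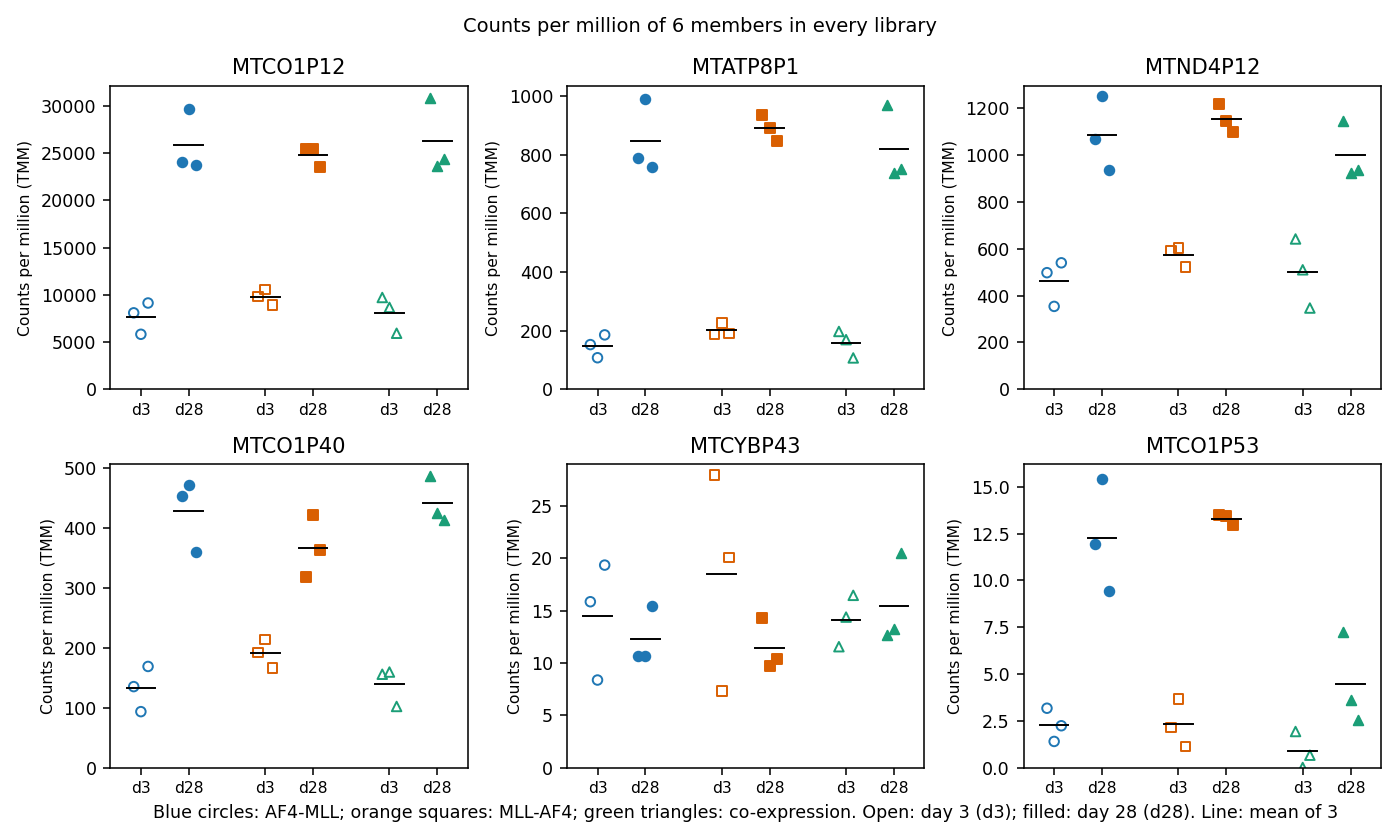
CPM on TMM-scaled library sizes in each of the 18 libraries for 6 members, with the mean of each group of 3 as a line. MTCO1P12, MTATP8P1, MTND4P12 and MTCO1P40 separate the days in every setting, MTCYBP43 overlaps between days, and MTCO1P53 lies lower under both constructs than in the other settings on day 28.

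Genes around the largest clusters were compared in the same way. The hosts PCBD2, SMAD2, PCDH7 and KIAA0825 and the nearest tested neighbours on both sides were called in no setting, with the exception of FAM174A on chromosome 5, which was lower on day 28 under AF4-MLL (log2 −0.90, SE 0.22, edgeR adjusted p 0.0169). The neighbours lay from 21668 bp (TXNDC15) to 5120222 bp (ARAP2) from the clusters. LOC102724250, which overlaps the 1p36 block, and RGPD2, which overlaps MTATP8P2, were not among the rows compared. SMAD2, which holds MTCO2P2, had log2 differences of 0.15, 0.27 and 0.26. The neighbours of the 1p36 block, MIR1302-2HG and CICP3, lay 593644 and 87124 bp away. They had only 153 and 88 counts in all, with log2 differences of 0.27, 0.09 and −0.27 and of −0.62, 0.13 and −0.85.

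A second scaling asked whether each member kept its proportion to the mitochondrial genome. Here the library size was the sum of the 37 mitochondrial genes, and a log2 difference of 0 means that a row moved as their sum did. The mitochondrial genes themselves were spread on this scale, the 13 protein-coding ones from −0.23 to 0.12, from −0.20 to 0.16 and from −0.26 to 0.13, and the 21 transfer RNA genes tested from −1.25 to 1.37 over the settings. On this scale the median of all rows was −1.77, −1.42 and −1.78 under AF4-MLL, MLL-AF4 and both, in that order, and the median of the 21 members was 0.00, 0.01 and 0.01. Called higher than the mitochondrial genes were 4, 6 and 5 members, beside 0.0963%, 0.13% and 0.102% of rows, and called lower were 5, 7 and 6, beside 98.5%, 89.3% and 98.3%. In all 3 settings 4 members were called higher and another 4 lower, while 7 members were called in none. The 6 large block members stayed between −0.10 and 0.15, which lies within the spread of the protein-coding mitochondrial genes.

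**Figure D4:**
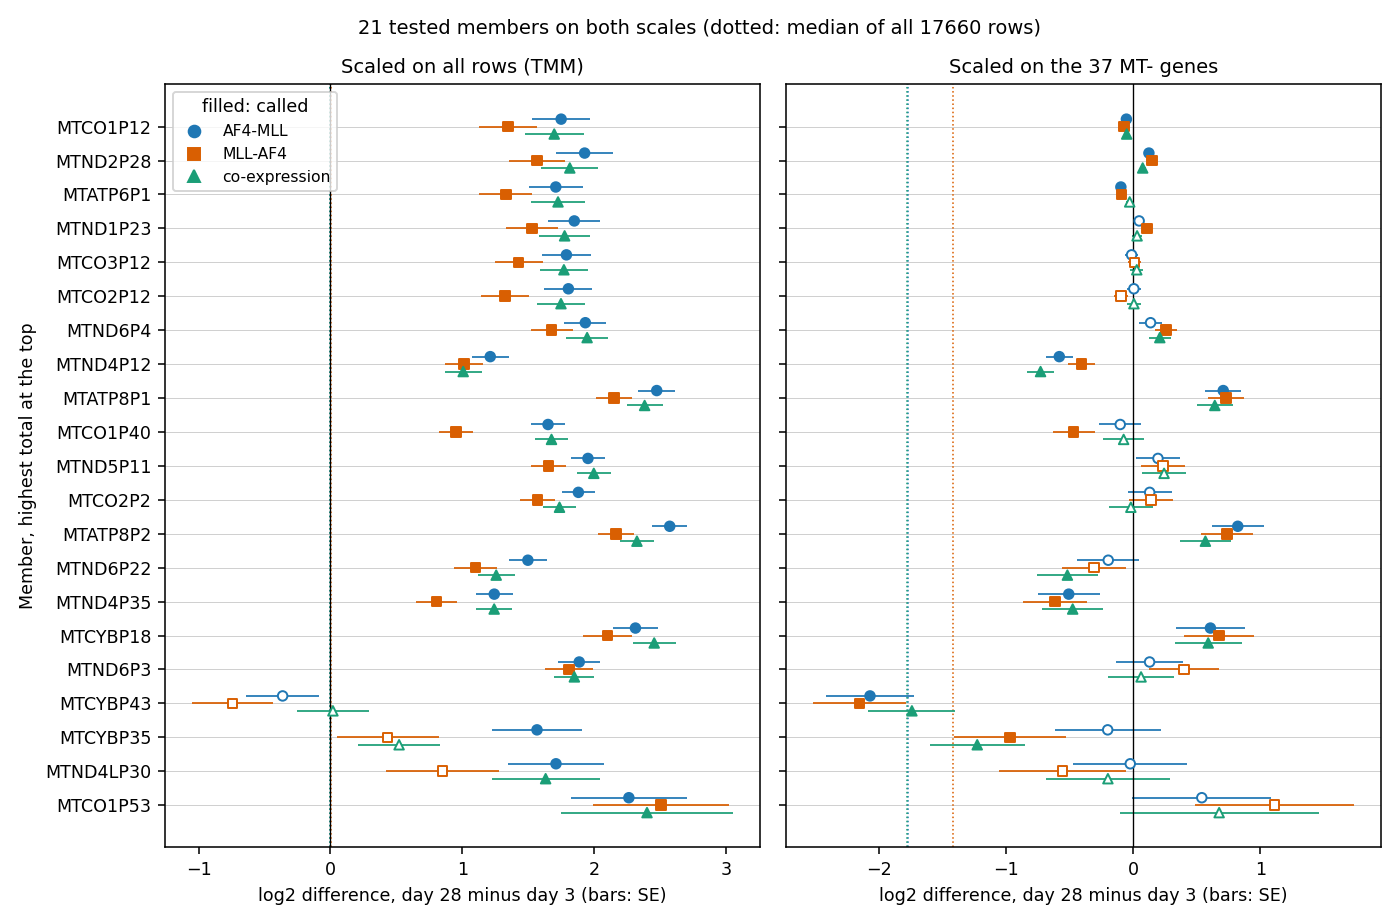
log2 difference between day 28 and day 3, with its SE, of the 21 tested members in 3 settings, scaled on all rows (left) and on the 37 mitochondrial genes (right), with filled symbols for called members and dotted lines at the median of all rows. On the right most members gather near 0, MTATP8P1 and MTATP8P2 lie above it at 0.57 to 0.82, MTND4P12 lies below it, and MTCYBP43 lies at −1.74 to −2.15.

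Among the 8 members called in all settings on this scale, both tested copies of ATP8 were higher and both tested copies of ND4 lower. Under both constructs, fewer members were called on this scale when a library was left out. Which members lost their call there is not given, so the 8 shared calls hold for the fit of all libraries. MTATP8P1 had log2 differences of 0.71 (SE 0.14, edgeR adjusted p 1.33e-06), 0.73 (SE 0.14, adjusted p 1.64e-06) and 0.64 (SE 0.14, adjusted p 8.3e-06), and MTATP8P2 had 0.82, 0.74 and 0.57. Per 1000 counts on its parent MT-ATP8, MTATP8P1 went from 47.6 ± 3.21 (SD, n = 3) to 82.2 ± 2.51 counts under AF4-MLL, from 50.8 ± 3.73 to 90.9 ± 3.61 under MLL-AF4 and from 48.3 ± 1.21 to 80.5 ± 1.57 under both constructs. The ND4 copy MTND4P12 had −0.58 (SE 0.11, adjusted p 1.49e-07), −0.41 (SE 0.11, adjusted p 0.000301) and −0.73 (SE 0.11, adjusted p 7.86e-11), and MTND4P35 had −0.51, −0.62 and −0.48 with adjusted p from 0.016 to 0.0494. Per 1000 counts on MT-ND4, MTND4P12 went from 18 ± 0.227 to 12.2 ± 0.58, from 17.3 ± 0.20 to 13.4 ± 0.54 and from 18.4 ± 1.26 to 11.1 ± 0.28. The groups of the 2 days did not overlap in any of these ratios.

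The copies of CYB did not share a direction. MTCYBP18 was higher than the mitochondrial genes by 0.61, 0.68 and 0.59 (adjusted p 0.0264, 0.0175 and 0.0258), and MTCYBP43 was lower with −2.07, −2.15 and −1.74, where the median row had −1.77, −1.42 and −1.78. MTND2P28 was higher by 0.12, 0.15 and 0.07 and MTCO1P12 lower with −0.05, −0.07 and −0.05. Their parents had 0.047, 0.039 and 0.030 (MT-ND2) and −0.085, −0.095 and −0.067 (MT-CO1) on this scale. MTCO1P12 thus fell less than its parent in each setting, a difference that was not tested. By contrast MTATP6P1, which overlaps MTATP8P1, kept its proportion to its parent within narrow limits, with 407 ± 5.12 counts per 1000 on MT-ATP6 on day 3 and 414 ± 2.41 on day 28 under AF4-MLL. Its log2 differences were −0.10, −0.09 and −0.03 and were called under AF4-MLL and MLL-AF4.

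The members below the filter were followed as a sum. The 68 members that did not pass had 164 ± 19.4 CPM, here on the counts of other nuclear rows, on day 3 under AF4-MLL (SD, n = 3) and 303 ± 37.8 on day 28. Under MLL-AF4 the values were 177 ± 21.9 and 286 ± 65.0, and under both constructs 147 ± 24.3 and 262 ± 44.4. The 295 copies that the rule left out rose from 229 ± 38.5 to 360 ± 34.8, from 204 ± 20.6 to 314 ± 58.4 and from 196 ± 15.2 to 308 ± 35.1. In both sums the 3 libraries of day 28 lay above the 3 of day 3 in each setting. Against the mitochondrial genes the 68 members went the other way, from 0.258 ± 0.0883 to 0.134 ± 0.0222 counts per 1000 under AF4-MLL, from 0.21 ± 0.0332 to 0.127 ± 0.0251 under MLL-AF4 and from 0.215 ± 0.0412 to 0.113 ± 0.0114 under both constructs. The day 28 libraries lay below the day 3 libraries in each setting on this ratio, so the low copies moved less than the mitochondrial genome and more than the other nuclear rows.

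Between the construct settings few members differed. On day 3 no member was called by edgeR in any of the 3 pairs, where 1.8% of rows were called for both constructs against MLL-AF4, 1.32% for both constructs against AF4-MLL and 0.142% for AF4-MLL against MLL-AF4. At an unadjusted p under 0.05 there were 3, 0 and 5 of the 21 members on day 3, beside 14.5%, 12.3% and 9.54% of rows, and DESeq2 called 0. On day 28 only MTCO1P53 was called, lower under both constructs than under MLL-AF4 (log2 −1.36, SE 0.36, edgeR adjusted p 0.0284, beside 0.736% of rows called lower) and than under AF4-MLL (log2 −1.27, SE 0.36, adjusted p 0.0359, beside 0.985%). No member was called for AF4-MLL against MLL-AF4 (0.0793% of rows), where 1 member and 8.26% of rows had an unadjusted p under 0.05 and DESeq2 called 0.

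MTCO1P53 (chrX:126471705-126472403) is a copy of the CO1 gene with 163 counts in all. It passed the filter only through 2 AF4-MLL and 3 MLL-AF4 libraries of day 28, the groups where it was high, so its calls between settings are given as a description and support nothing. On day 28 it had 19, 29 and 14 counts under AF4-MLL, 17, 25 and 15 under MLL-AF4 and 16, 6 and 2 under both constructs. In CPM the libraries with both constructs, at 7.25, 3.61 and 2.56, lay below all AF4-MLL libraries, at 11.9, 15.4 and 9.41, and all MLL-AF4 libraries, at 13.5, 13.4 and 12.9, an order without overlap that 8.37% and 8.2% of rows shared. Both calls were lost (0 members) without the filter on low counts, under DESeq2, and when replicate 2 or 3 of the setting with both constructs was left out. The call against MLL-AF4 was also lost without replicate 1, 2 or 3 of MLL-AF4, and the call against AF4-MLL without replicate 1 or 2 of AF4-MLL. Of the 19 other tested genes within 5 Mb of it, 0 were called lower in either comparison, with median log2 differences of 0.04 and 0.09.

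The rise from day 3 to day 28 was called different between settings for 1 member, a call that held under 10 of 21 alternatives. MTCO1P40 (chr17:53105734-53106358), another copy of CO1, rose by 0.95 (SE 0.13) under MLL-AF4 and by 1.68 (SE 0.12) under both constructs, and the difference between the 2 rises was 0.72 (SE 0.18, edgeR adjusted p 0.0462, beside 0.136% of rows called in that direction). It had 193, 214 and 166 CPM under MLL-AF4 on day 3 and 318, 422 and 363 CPM on day 28. Under both constructs it had 156, 160 and 102 CPM, then 487, 426 and 414 CPM, and under AF4-MLL 135, 93.4 and 169 CPM, then 453, 472 and 360 CPM. MLL-AF4 started higher and ended lower on average, with overlapping libraries on day 28. In the same comparison the 36 tested mitochondrial genes had a median difference between the rises of 0.32, with 0 called. At the median these genes thus also rose less under MLL-AF4, but by a smaller margin than MTCO1P40. Per 1000 counts on the 37 genes, MTCO1P40 went from 0.566 ± 0.025 (SD, n = 3) to 0.409 ± 0.058 counts under MLL-AF4. Under both constructs it went from 0.502 ± 0.034 to 0.476 ± 0.033, and under AF4-MLL from 0.498 ± 0.045 to 0.466 ± 0.050. These ratios were not tested. The call of MTCO1P40 was lost without the filter, with library size alone and under DESeq2. It also counts as lost under the study's selection, but a log2 of 0.72 cannot pass that selection's limit of 1, so this loss was fixed in advance. It was also lost without day 3 replicate 1 or 2 or day 28 replicate 1 or 3 of MLL-AF4, and without day 3 replicate 3 or day 28 replicate 1 or 2 of both constructs, with values from 0.54 to 0.75 and adjusted p from 0.0661 to 0.202. Against AF4-MLL the difference of the rises was 0.70 (SE 0.18, adjusted p 0.0506, beside 0.311% of rows) and was not called, and both constructs and AF4-MLL alone differed by 0.03 (SE 0.18, adjusted p 0.998, with 0 of all rows called and 894 rows, or 5.06%, 1 member among them, at an unadjusted p under 0.05).

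The labelled cell line could not be read from marker genes in these counts, since a read count over a gene in this assay reflects openness and copy number and not expression. The kidney-line markers PAX2, CDH2 and VIM had 7.24 to 100 CPM and the blood markers PTPRC, CD3E and SPI1 0 to 28.3 CPM over the 18 libraries, and KMT2A, the source gene of the constructs, had 26.7 to 105 CPM.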

How the data were processed

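ATAC-seq reads were counted per gene in 18 libraries, 3 for each of 3 construct settings on 2 days. The authors deposited a table of raw counts, whole numbers for 54425 rows with Ensembl identifiers, symbols and descriptions. The submitters' processing notes name bcl2fastq, Bowtie2, HTSeq and build GRCh38. The region counted per gene and the handling of duplicate and multiply mapped reads are not given in the sources used here. Depth ran from 442159 to 3539937 counts.

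Counts were fitted in R 4.3.3 with edgeR 4.0.16 (TMM, filterByExpr with minimum count 10 and minimum total 15, quasi-likelihood F tests, 6 groups, no covariate, adjustment over all 17660 rows tested). The biological coefficient of variation was 7.48%. A second fit used the sum of the 37 MT- genes as library size, without TMM. Positions and lengths came from RefSeq (GRCh38.p14), with 88 of 89 members matched by symbol. In simulated data for day 28 against day 3 under both constructs, with log2 changes of 1, 186 of 200 changed genes of high count (17267 genes in the step) and 97 of 200 of low count (17211 genes) were recovered. The same comparison gave 14 false calls in the step of high count and 7 in that of low count. In an unchanged contrast 0 calls were made.

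Named were the 1p36 block, the 10 members of highest total, in each day comparison the 4 called members of largest log2 difference (mean count 10 or more), members called between settings or in an interaction, and the 2 rows on each side of the total of 20. The rule also asked for uncalled members with a mean count of 20 or more, and none qualified. It gave 15 of the tested members, and the other 6 were added after their values were seen. Members, lists and rules were chosen with earlier results of these data known. The settings compared on a day share libraries across pairs. Same-numbered replicates were checked for pairing and did not vary together.

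Alternatives were DESeq2's size factors, library size alone, MT- genes left out, no filter, a filter on a mean of 10 counts, DESeq2 1.42.0, the study's selection (unadjusted p under 0.05, absolute log2 over 1, mean over 2 counts), only the groups compared, a replicate block, and each library left out in turn.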

Additional observations from a re-analysis of the deposited data

Results flagged for a closer look

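The rise of MTCO1P40 from day 3 to day 28 differed between the setting with both constructs and MLL-AF4 alone by 0.72 on the log2 scale (SE 0.18, edgeR adjusted p 0.0462), tested as the interaction of day and setting. In the same comparison the 36 tested mitochondrial genes had a median difference of 0.32, with 0 called. MTCO1P40 rose in 3 of 3 libraries of either setting, as every library of day 28 lay above every library of day 3. The call was made under 10 of 21 alternatives, with log2 values from 0.54 to 0.84 and adjusted p from 0.0227 to 1. It was lost (0 members) with library size alone, without the filter on low counts and under DESeq2. The study's selection, with its limit of 1 on the absolute log2, could not have kept a value of 0.72. The call was also lost in 7 of the fits that left out a library, those without day 3 replicate 1 or 2 or day 28 replicate 1 or 3 of MLL-AF4 and without day 3 replicate 3 or day 28 replicate 1 or 2 of both constructs.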

How the results depend on the processing

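Of 57 pairs of a member and a comparison that were called, 44 were called under every alternative run and 55 kept their sign. All 3 reversals, that of MTCYBP43 lying outside these 57 pairs, came with library size as the only scaling, which moves the median of all rows to −1.03, −0.85 and −1.04 between days (AF4-MLL first, then MLL-AF4, then both constructs). MTCYBP43 under both constructs was not called in the main fit (log2 0.02, edgeR adjusted p 0.992). On that scale MTND4P12 had −0.0049 (both constructs), MTND4P35 −0.052 (MLL-AF4) and MTCYBP43 −1.02 (both constructs), and 16, 14 and 14 of 21 members were called higher and 1, 1 and 1 (MTCYBP43) lower. Without the 1p36 block, the share of the members rose by 0.726, 0.646 and 0.69 percentage points in place of 11.5, 9.85 and 11.4, from 0.393%, 0.481% and 0.411% to 1.12%, 1.13% and 1.10%, which is 2.85-, 2.34- and 2.68-fold in place of 3.00-, 2.38- and 2.89-fold. Relative to the mitochondrial genes, 17 of 89 in place of 9 of 21 members were called under AF4-MLL without the filter on low counts. The 2 counts cover different members, so they are not a like comparison. On this scale 98.5% of the rows that passed the filter were called lower under AF4-MLL. Under both constructs 7 to 10 in place of 11 members were called when a library was left out (7 without day 3 replicate 3).

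For both constructs against MLL-AF4 on day 3, 1 member (MTCO1P40) was called in place of 0 with MT- genes left out, with a filter on a mean of 10 counts and with only the groups compared, and 0 to 2 with a library left out. For AF4-MLL against MLL-AF4 on day 3, only the groups compared gave 1. On day 28, the single call of MTCO1P53 against MLL-AF4 became 0 without a filter, with the mean of 10 and under DESeq2, and 0 to 1 with a library left out. The filter on a mean of 10 gave 0 because it left MTCO1P53 out of the test. Against AF4-MLL the call became 0 under the same 3 alternatives and with library size alone, and 0 to 1 with a library left out. The interaction of day with both constructs against MLL-AF4 gave 0 in place of 1 with library size alone, without a filter and under DESeq2, and 0 to 1 with a library left out. It also gave 0 under the study's selection, whose limit of 1 on the absolute log2 the called value did not reach. The interaction for AF4-MLL against MLL-AF4 gave 1 in place of 0 with DESeq2's size factors, MT- genes left out, the mean of 10, the study's selection and only the groups compared, and 0 to 1 with a library left out. The interaction for both constructs against AF4-MLL gave 1 under the study's selection. The cause of these changes was not tested.

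With the replicate number as a block, 20, 18 and 18 members were called between days and 9, 13 and 10 relative to the mitochondrial genes, and the other counts did not change. Same-numbered libraries correlated between −0.0908 and 0.0367 (0 of 45 pairs over 0.1), and 10 of 45 matched best with their own number.

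Depth limits the low members, of which 68 were not tested. In simulated data 48.5% of log2 changes of 1 were found among genes of low count in a step of 17211 genes. That figure gives no recovery for the 68 members, which did not pass the filter.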
